A study of Mus musculus with 7 samples.

Results

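Stimulated Th17 cells were compared with stimulated Th1 cells for the binding of BRG1 to chromatin, using 3 of the 7 libraries of the series: the BRG1 library of each subset and an input library as background. Of 26204 regions called in the 6 BRG1 libraries, 22462 had at least 10 reads in the pair and entered the comparison. Each subset had 1 library, so every ratio compares libraries rather than conditions, no p-value is given and the spread between cultures is unknown.

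BRG1 is the ATPase of the mammalian SWI/SNF (BAF) complex, which uses ATP to slide or evict nucleosomes and so opens promoters and enhancers to transcription factors. Th17 cells secrete IL-17A and IL-17F and act against extracellular bacteria and fungi, whereas Th1 cells depend on the T-box factor T-bet, secrete interferon-γ and act against intracellular pathogens. PMA, an activator of protein kinase C, and ionomycin, a calcium ionophore, together bypass the T cell receptor and switch on cytokine transcription within hours.

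Chromatin immunoprecipitation and sequencing was done with the J1 antibody against BRG1. All cells began as naive CD4+CD62L+ T cells, 95% pure, of 4 to 6 week old Balb/c mice (spleen and lymph nodes), and were differentiated in a single round of culture. Stimulated Th1 cells had been differentiated on plates coated with anti-CD3 at 1 μg/ml and anti-CD28 at 2 μg/ml, with IL-12 at 1 ng/ml and anti-IL-4 at 10 μg/ml, and expanded in IL-2 at 100 U/ml. Stimulated Th17 cells had received soluble anti-CD3 at 4 μg/ml and anti-CD28 at 1 μg/ml, 100 ng/ml IL-6, 1 ng/ml TGF-β and 10 ng/ml IL-1β, with antibodies to IL-4 and IFNγ at 10 μg/ml each. IL-23 at 10 ng/ml was added for their expansion, and the label names no IL-2. Both subsets were then stimulated for 1.5 h, with 500 ng/ml ionomycin plus 50 ng/ml PMA. The subsets therefore differ in how the T cell receptor was engaged during differentiation and in IL-2 as well as in polarizing cytokines, and these cannot be told apart. Stimulated Th2 cells, from cultures with IL-4 at 10 ng/ml and anti-IFNγ at 10 μg/ml with the coated antibodies and IL-2 used for Th1 but no IL-12 or anti-IL-4, naive cells, and resting Th1 and Th2 cells, which were not given PMA and ionomycin, serve as further libraries that the ratio does not use. The input came from pooled CD4+ T cells without immunoprecipitation. Positions are on mouse build mm9, no mm9 annotation was used, and regions are named by coordinates only. The marker genes of the 2 subsets could therefore not be looked up, and the identity of the cells rests on the labels.

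After 1 read was kept per position and strand, the stimulated Th17 library held 7892944 distinct reads and the stimulated Th1 library 3917492. Repeated reads made up 10.2% and 11.4% of the 2 libraries, and reads of the plus and minus strand were offset by 122 bp in both. The unstimulated BRG1 libraries held 1340208 to 2071800 distinct reads, the stimulated Th2 library 4261900 and the input 3531867.

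BRG1 reads were less concentrated in regions in stimulated Th17 cells than in stimulated Th1 cells. A region is a run of 200 bp windows whose read count passed a Poisson tail of 1e-05 over the local input, and each BRG1 library was thinned to 1340208 reads for this step. At that depth 6111 regions were called in stimulated Th17 and 11395 in stimulated Th1. The Th17 regions held 2.37% (2.36 to 2.38) of all distinct Th17 reads and the Th1 regions 8.26% (8.23 to 8.29) of all Th1 reads. In the union of regions of all 6 BRG1 libraries the shares were 7.21% and 12.6%, against 2.37% of the input reads. Of the Th17 regions, 38.8% shared at least 1 bp with a Th1 region, and 20.8% of the Th1 regions shared at least 1 bp with a Th17 region. With both libraries at the depth of stimulated Th1, these shares were 49.6% and 39.7%. All intervals are 95% Clopper-Pearson intervals, and those on reads reflect counting error alone, since amplified copies cannot be told from separate molecules without identifiers. Intervals on shares of regions are not given, because neighbouring regions share their source.

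At matched regions, stimulated Th17 cells had a lower BRG1 density than stimulated Th1 cells at most positions, with a smaller set of regions in the opposite direction. The ratio of reads per 1000000 distinct reads (RPM), Th17 over Th1, had a median of 0.579 over the 22462 tested regions, with quartiles of 0.401 and 0.918, and it was above 1 in 21.4% of them. In 10 kb bins that held no region, the ratio was 1.08. The call required a ratio of 3-fold or more with an interval that did not hold 1. By this rule 771 regions were higher in Th17, 3.43% of those tested, and 3724 were lower, 16.6% of those tested, so that 82.8% of the calls were lower. When ratios were divided by their median instead, 2088 regions were higher (9.3%) and 1253 lower (5.58%), and 37.5% of the calls were lower, so which direction has more calls depends on the scale chosen for the 2 libraries.

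With Th17 thinned to the read number of Th1, 546 of 20565 tested regions (2.65%) were higher and 3787 (18.4%) lower. A limit of 2-fold gave 934 higher (4.16%) and 7576 lower (33.7%). The smallest ratio called higher was 3.04 and the largest called lower 0.333. A further 296 regions passed 3-fold upwards and 203 passed it downwards with intervals that held 1. The reads that call a region also enter its ratio, which matters most for regions called in 1 library of the pair. When regions were called on 50% of the reads of each library and counted on the other 50%, 124 of 9404 tested regions (1.32%) were higher and 1507 (16.0%) were lower. When regions came from the 4 BRG1 libraries outside the comparison, 146 of 16110 (0.906%) were higher and 2535 (15.7%) lower. The share called higher was thus smaller in both of these settings, while the share called lower was nearly the same.

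**Figure D1:**
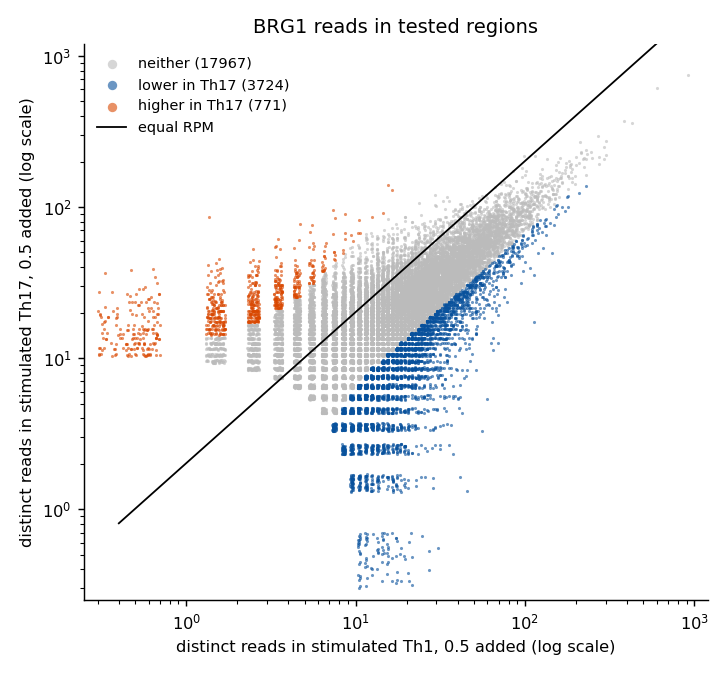
Distinct reads of each of the 22462 tested regions in stimulated Th1 (x axis) and stimulated Th17 (y axis), both on log scales with 0.5 added and low counts spread sideways so that points with equal counts can be seen. The line marks equal RPM. Regions called higher in Th17 (771, orange) have few Th1 reads, and regions called lower (3724, blue) extend to regions with over 100 reads.

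The call itself sets the read numbers of the pair. The 771 higher regions had a median of 22 reads in Th17 and 2 in Th1, and 171 of them had no Th1 read. The 3724 lower regions had a median of 8 reads in Th17 and 18 in Th1, and 94 of them had no Th17 read. Heights were therefore read in stimulated Th2, which the ratio does not use. Regions called in stimulated Th2 are among the tested ones, however, and 619 of the 771 higher regions were called at equal depth in stimulated Th17 alone. Low Th2 heights at higher regions, and with them the trends over the classes below, are therefore partly built in. With tested regions divided into 5 classes by their RPM per kb in stimulated Th2, the share called higher was 12.1% in the lowest class and 3.25%, 1.36%, 0.519% and 0.263% in the others, in rising order. Regions called lower numbered 532, 639, 966, 888 and 699 in the 5 classes, which hold 3968 to 4837 tested regions each. The lowest class held 540 of the 771 higher regions and the highest class 12, while the lower regions were spread over all 5 classes. The median ratio was 0.993 in the lowest class and 0.496 in the highest. A single window made up 91.6% of the higher regions, 78.5% of the lower regions and 76.3% of all tested regions.

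The lists of regions that each library gave at equal depth placed the 2 sets differently. Of the higher regions 88.3% were on the Th17 list and none on the Th1 list, which the ratio itself favours. On the lists the ratio did not use, 13.4% of the higher regions were called in stimulated Th2 and 7.91% in naive, resting Th1 or resting Th2 cells. Of the lower regions, 46.1% were called in stimulated Th2 and 35.0% in an unstimulated library. Among all tested regions these shares were 43.8% and 46.3%. In all, 619 of the 771 higher regions were on the Th17 list and no other list.

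The libraries outside the comparison were then read at the called regions. In the higher regions, the pooled density over input was 6.01 (5.54 to 6.53) in stimulated Th2 cells, 3.26 (2.94 to 3.62) in Th2 cells at rest, 2.08 (1.87 to 2.32) in Th1 cells at rest and 1.16 (1.03 to 1.31) in naive cells. The libraries that made the calls stood at 13 in stimulated Th17 and 2.12 in stimulated Th1. Stimulated Th2 cells therefore had more BRG1 reads over input at these regions than stimulated Th1 cells and fewer than stimulated Th17 cells, and 59 of the 771 regions had no Th2 read. Stimulated Th2 and stimulated Th1 were not chosen alike here, because a low Th1 count is part of the call.

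A pair that does not enter the ratio gave the comparison of Th2 with Th1 cells at rest. Regions called in either library are among the tested ones, however. Of the higher regions, 7.91% were called in naive, resting Th1 or resting Th2 cells. Resting Th2, the shallowest library, was used in full for calling, so its calling reads were counted again. A low count in stimulated Th1 is also part of the call, and whether this carries over to resting Th1 was not tested. Resting Th2 had 1.57 times (1.41 to 1.73) the RPM of resting Th1 in the higher regions, 1.19 times (1.16 to 1.21) in the lower regions and 1.12 times (1.11 to 1.13) in all tested regions. The excess in the higher regions rests on 816 and 703 reads, and 437 and 456 of the 771 regions had no read in resting Th2 and resting Th1. The intervals of the higher and the lower regions do not overlap, but they carry counting error only, and the excess may be partly built in by the choice of regions.

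In the lower regions, the pooled density over input was 5.52 (5.41 to 5.63) in stimulated Th2 cells, 3.77 (3.68 to 3.87) in Th2 cells at rest, 3.18 (3.11 to 3.26) in Th1 cells at rest and 1.94 (1.89 to 1.99) in naive cells. Stimulated Th1 had 7.03 and stimulated Th17 1.62 by the rule of the call. All 4 BRG1 libraries outside the comparison were denser over input than stimulated Th17 at these regions, the naive library included. They were not chosen alike, because a low Th17 count is part of the call. In addition, 46.1% of these regions were called in stimulated Th2 and 35.0% in an unstimulated library. Over all tested regions the order was stimulated Th1 at 5.36, stimulated Th2 at 4.85, resting Th2 at 4.09, resting Th1 at 3.66, stimulated Th17 at 3.08 and naive at 2.34.

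**Figure D2:**
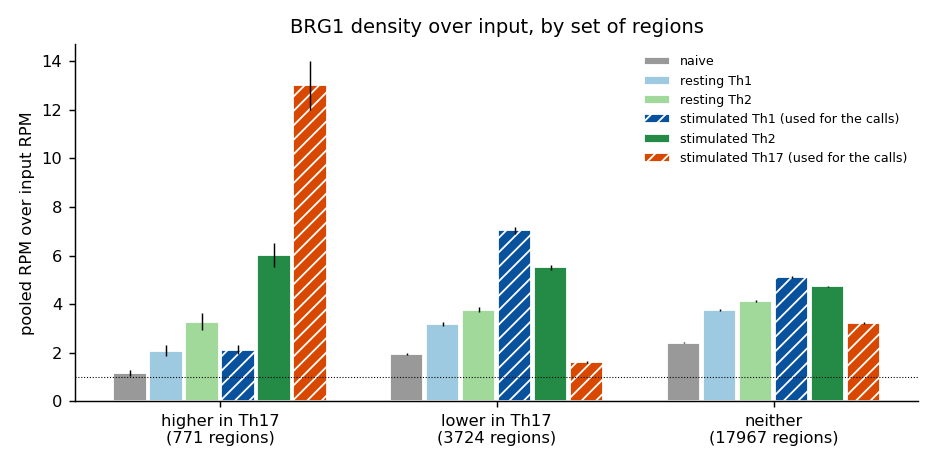
Pooled RPM of each BRG1 library divided by the pooled input RPM, for regions higher in Th17, lower in Th17 and neither, with 95% intervals for counting error as bars and hatching for the 2 libraries that made the calls. The dotted line marks the input. Stimulated Th2 reaches 6.01 in the higher regions and 5.52 in the lower regions, above all 3 unstimulated libraries in both.

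The signal of the library with more reads was centred on the regions in both directions, which the choice of the regions itself favours. Of the higher regions 88.3% were called in stimulated Th17, and of the lower regions 70.0% were called in stimulated Th1. Around the higher regions, the mean Th17 density was 14.2 RPM per kb in the central window and 2.04 and 1.96 RPM per kb at 2 kb to the left and right, while stimulated Th1 had 2.27 in the centre and 1.38 and 1.51 at the sides. Around the lower regions, stimulated Th1 had 23.4 RPM per kb in the centre and 1.99 and 2.03 at the sides. Stimulated Th17 had 5.18 RPM per kb in the centre and 1.59 on each side. The input rose more steeply there, from 0.722 and 0.726 RPM per kb at the sides to 3.49 in the centre, so the Th17 rise by itself does not show BRG1 signal in these windows.

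**Figure D3:**
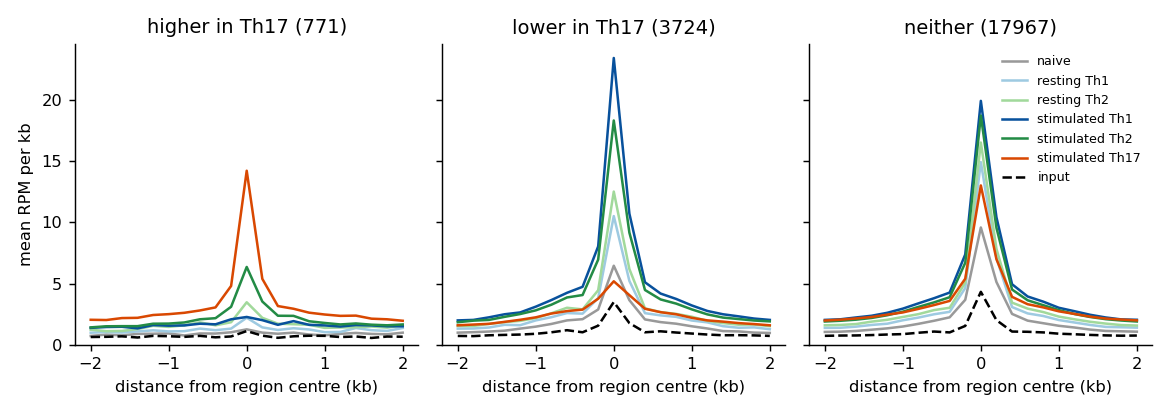
Mean RPM per kb in 200 bp windows from 2 kb left to 2 kb right of the region centre, for regions higher in Th17, lower in Th17 and neither, 1 line per library. In the centre of the lower regions stimulated Th1 stands at 23.4, stimulated Th2 at 18.3, stimulated Th17 at 5.18 and input at 3.49 RPM per kb.

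The 12 regions called higher with the interval bound farthest from 1 had 28 to 86 reads in stimulated Th17, with a median of 37, and 0 to 4 in stimulated Th1, of which 8 of 12 had none. Stimulated Th2 had 0 to 26 reads there with a median of 8, naive cells 0 to 1, resting Th1 0 to 2, resting Th2 0 to 6 and the input 0 to 2. BRG1 signal at these positions was thus high in stimulated Th17, lower in stimulated Th2 in most cases, and nearly absent in the unstimulated libraries, which are shallower, apart from resting Th2 at 1 of them.

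The first of them, chr1:20749801-20750400, held 86 Th17 reads, 1 Th1 read, 13 stimulated Th2 reads, 1 read each in naive and resting Th1, and none in resting Th2 or input. Its RPM was 10.9 in stimulated Th17 and 0.255 in stimulated Th1, a ratio of 42.7 (7.46 to 1705). The interval is wide because its Th1 count is 1, and the ratio was 18.4 when the region was widened by 3 windows on each side.

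At chr11:35334801-35335000, stimulated Th17 had 38 reads, stimulated Th1 none and input 2. Where a library had no read, 3 counts took the place of the 0 to give a least fold (a floor per library), followed by the bound of the exact interval, which also allows for error in the other count. Stimulated Th17 was at least 6.29-fold higher than Th1, and the exact interval began at 4.87. Here stimulated Th2 had 26 reads, 6.10 RPM against 4.81 RPM in Th17, and the unstimulated libraries had none. The position was therefore occupied in stimulated Th17 and stimulated Th2 and not detected in stimulated Th1.

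At chr12:56433801-56434000, 28 reads were found in stimulated Th17 and none in any other library, input included. The level was at least 4.63-fold higher than in Th1, and the exact interval began at 3.52. It was the only region of the 12 without a stimulated Th2 read.

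At chr13:36461401-36461600, stimulated Th17 had 42 reads, 5.32 RPM, and stimulated Th1 had 1 read, a ratio of 20.8 (3.54 to 843). Resting Th2 had 6 reads there, 4.48 RPM, while stimulated Th2 had 3 reads, 0.704 RPM, and resting Th1 had 1. Among the 12 regions this was the one with the highest resting Th2 level.

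At chr15:31279201-31279800, 3 windows long, stimulated Th17 had 77 reads and stimulated Th1 had 4, a ratio of 9.55 (3.58 to 36.0). Stimulated Th2 had 8 reads, resting Th2 and input 2 each, and naive and resting Th1 none. At chr16:32672401-32672600, stimulated Th17 had 45 reads, stimulated Th1 had 1 and stimulated Th2 13, a ratio of 22.3 (3.81 to 902). A further 5 regions, on chromosomes 1, 5, 9, 11 and 18, had 28 to 36 reads in Th17, none in Th1 and 7 to 9 in stimulated Th2. Of these, chr5:73161201-73161400 (28 Th17 reads) was no longer called with Th17 at the depth of Th1.

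The 12 regions called lower with the interval bound farthest from 1 had 0 to 3 reads in stimulated Th17, of which 9 of 12 had none, and 20 to 55 in stimulated Th1, with a median of 25.5. Stimulated Th2 had 9 to 48 reads in them with a median of 22.5, and the input had 0 to 4. None of the 12 was without reads in stimulated Th2.

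The first, chr12:70712401-70713000, held 1 read in stimulated Th17 and 45 in stimulated Th1. Naive cells had 27 reads there, resting Th1 15, resting Th2 10, stimulated Th2 42 and input none. The Th17 level was 90.7-fold lower than that of Th1 (15.5 to 3660). In RPM the other 5 BRG1 libraries ranged from 7.46 to 13 and stimulated Th17 was at 0.127, so stimulated Th17 was alone in its low value.

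The same pattern was seen at chr11:51269001-51269400, with 1 read in stimulated Th17 and 41 in stimulated Th1, while stimulated Th2 had 48, naive 30, resting Th1 26, resting Th2 19 and input 4. That is an 82.6-fold lower level (14.0 to 3341). At chr5:15337401-15337800, stimulated Th17 had none, stimulated Th1 had 21, naive 26, resting Th1 14, resting Th2 18, stimulated Th2 20 and input none, at least 14.1-fold lower with an exact bound of 10.5. At chr12:49931801-49932000, stimulated Th17 had none, stimulated Th1 20, naive 21, resting Th1 10, resting Th2 7, stimulated Th2 15 and input none, at least 13.4-fold lower with an exact bound of 9.95.

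At chr5:15337401-15337800 and chr12:49931801-49932000 the reads were packed closely. In stimulated Th1 the middle 80% of read starts, before any shift, spanned 63 and 41 bp there, against 142 to 363 bp in the other 10 lower regions, and the 1 kb on each side together held 1 read, against 2 to 36. In naive cells the spans at the 2 positions were 61.5 and 42 bp. At chr11:51269001-51269400 the span in stimulated Th1 was 185 bp, but the 1 kb on each side together held 2 reads. The median plus-strand and minus-strand read starts lay 34.5 bp apart there, against 31.5 and 29.5 bp at the 2 packed positions. This distance was 19.5 bp at chr16:44748201-44748600, with 11 reads at the sides, and had a median of 94 bp at lower regions of 1 window. At chr12:70712401-70713000, a region of 3 windows, the distance was 136 bp in stimulated Th1 and 202 bp in resting Th2. In the same region it was 14.5 bp in naive cells, 28.5 bp in resting Th1 and 38.5 bp in stimulated Th2. The part of packing and of short distances in the differences was not tested.

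Other lower regions had most of their reads in stimulated Th1 and stimulated Th2. At chr16:44748201-44748600, stimulated Th17 had no read and stimulated Th1 had 30, with 32 in stimulated Th2. Naive cells had 2, resting Th1 had 4, resting Th2 had 5 and the input had none. The Th17 level was at least 20.1-fold lower, with an exact bound of 15.4. At chr7:65472201-65472400, stimulated Th17 had none, stimulated Th1 had 24, stimulated Th2 had 14 and input had 2, and the unstimulated libraries had none. The level was at least 16.1-fold lower, with an exact bound of 12.1.

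At chr3:32308001-32308200, stimulated Th17 had no read, stimulated Th1 had 27, stimulated Th2 19, input 3 and resting Th1 1. Stimulated Th17 was at least 18.1-fold lower with an exact bound of 13.8, but the ratio was 0.353 once the region was widened by 3 windows on each side, which is no longer a 3-fold difference. At chr11:79226801-79227000, stimulated Th17 also had none and stimulated Th1 27, with 29 in stimulated Th2, 2 in resting Th2 and 2 in input, and the same bounds.

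A higher level in stimulated Th1 than in stimulated Th2 was seen at chr7:149565001-149565400. It held 3 reads in stimulated Th17 and 55 in stimulated Th1, while stimulated Th2 had 14, resting Th1 7, resting Th2 1, input 1 and naive none. Stimulated Th17 was 36.9-fold lower than Th1 (12 to 185), and the RPM of stimulated Th2, 3.28, lay between 0.380 in Th17 and 14.0 in Th1. The remaining 3 regions, on chromosomes 4, 5 and 15, had no Th17 read and 20 to 21 Th1 reads.

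**Figure D4:**
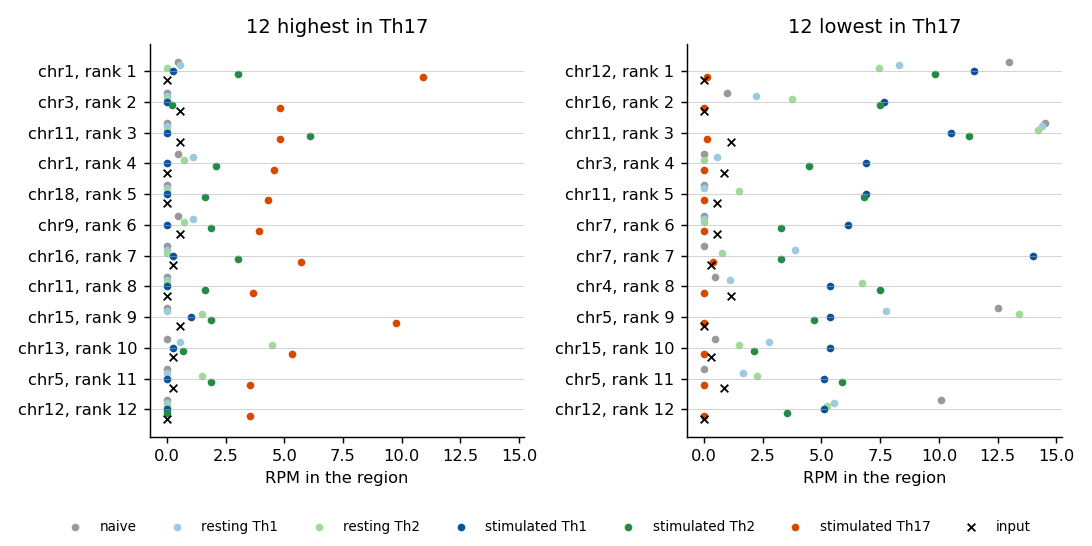
RPM of all 7 libraries in the 12 regions called higher (left) and the 12 called lower (right) with the interval bound farthest from 1, ordered by that bound and labelled by chromosome and rank. On the left stimulated Th17 (orange) lies between 3.55 and 10.9 RPM and stimulated Th1 (dark blue) at or below 1.02. On the right stimulated Th17 lies at or below 0.380 RPM, and in ranks 1, 3, 9 and 12 the other 5 BRG1 libraries all lie well above it.

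For contrast, the 5 regions with the most reads per window and a ratio near 1 were examined. Of these, 3 lay close together on chromosome X, from 166432001 to 166437400, with 118 to 217 Th17 reads and 68 to 99 Th1 reads. They also had 11 to 17 input reads, 3.11 to 4.81 RPM, so part of their height was present without immunoprecipitation. Their median plus-strand and minus-strand read starts lay 10 to 33 bp apart in stimulated Th17 and 12 to 45 bp apart in stimulated Th1. At regions of 1 window called in neither direction, the median distance was 93 bp in both libraries. The regions on chromosomes 3 and 1 below had 116 and 93 bp in stimulated Th17 and 112 and 65 bp in stimulated Th1. At chr3:96384201-96384400, stimulated Th17 had 100 reads and stimulated Th1 49, a ratio of 1.01 (0.713 to 1.46), while stimulated Th2 had 62, naive 10, resting Th1 11, resting Th2 4 and input 6. At chr1:75314201-75314400, stimulated Th17 had 90 reads and stimulated Th1 55, a ratio of 0.812 (0.574 to 1.16), while stimulated Th2 had 57, naive 12, resting Th1 23, resting Th2 16 and input 16. With all reads kept, the ratio was 2.61, 1.43 and 2.48 in the 3 regions on chromosome X, 2.01 at chr3:96384201-96384400 and 0.843 at chr1:75314201-75314400, so the ratios of 4 of the 5 lay near 1 only with 1 read counted per position.

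Called regions were gathered into clusters, defined as at least 3 regions called in 1 direction with gaps of up to 50 kb. Of the higher regions, 49 (6.36%) fell into 15 clusters, and of the lower regions 760 (20.4%) fell into 210 clusters. Within 50 kb of a higher region another higher region was found in 23.0% of cases, against 12.1% for all tested regions. A lower region lay within 50 kb of another lower region in 44.4% of cases, against 40.9% for all tested regions. Lower regions were thus hardly more often neighbours of each other than tested regions in general were neighbours of a lower region.

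The cluster at chr1:20744601-20783000 held 4 regions called higher out of 4 tested. Its called regions had 166 reads in stimulated Th17 and 6 in stimulated Th1, with 25 in stimulated Th2, 3 in resting Th1, 1 in naive, none in resting Th2 and 4 in input. The pooled ratio was 13.7 (6.18 to 38.0). Over the whole span of 38.4 kb, counting every read in it, the ratio was 5.02 (3.70 to 6.95). This ratio includes the reads of the called regions, so it does not show whether the difference went beyond them.

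Within that cluster the regions differed in their Th2 signal. The region at chr1:20744601-20744800 had 16 reads in stimulated Th17 and none in any other library, and chr1:20782801-20783000 had 23 in stimulated Th17, 1 in input and none in the rest. The region at chr1:20781601-20781800 had 41 reads in stimulated Th17 and 5 in stimulated Th1, while stimulated Th2 had 12, resting Th1 2 and input 3, a ratio of 4.07 (1.61 to 13.2). The remaining region of the cluster is the 3-window region with 86 Th17 reads described first. Stimulated Th2 reads were thus found at the inner 2 of the 4 regions and not at the outer 2.

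The other 2 higher clusters with the most regions and the longest span were at chr11:52109601-52153000 and chr15:59373601-59416800. In the former 4 of 14 tested regions were higher and 1 was lower, with 91 Th17 and 9 Th1 reads in the higher ones, a pooled ratio of 5.02 (2.53 to 11.3), and a ratio of 1.14 over the whole span, with an interval that began at 1.03. In the latter 4 of 7 were higher, with 75 Th17 and 6 Th1 reads, a pooled ratio of 6.20 (2.72 to 17.4), and 1.53 (1.32 to 1.78) over the whole span. Over these 2 spans as a whole the ratio was nearer to 1 than over the cluster on chromosome 1.

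The lower cluster with the most regions was chr11:96965401-97012400, where 10 of 14 tested regions were lower. Its called regions had 233 reads in stimulated Th17 and 469 in stimulated Th1, 29.5 and 120 RPM. Stimulated Th2 had 322 reads, resting Th1 79, resting Th2 46, naive 25 and input 47, which is 75.6, 43.7, 34.3, 12.1 and 13.3 RPM. BRG1 was 4.06-fold lower in Th17 than in Th1 (3.46 to 4.77), and over the whole span of 47.0 kb the ratio was 0.431 (0.396 to 0.469). Stimulated Th1 was the highest library over this cluster, and stimulated Th17 lay below both resting libraries.

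One region of that cluster, chr11:96971201-96971400, had 2 reads in stimulated Th17 and 29 in stimulated Th1, a ratio of 0.0342 (0.00396 to 0.135), with 9 in stimulated Th2, 1 in input and none in naive or resting cells. The one with the most reads, chr11:97011401-97012400, had 72 in stimulated Th17 and 120 in stimulated Th1, a ratio of 0.298 (0.219 to 0.402), with 92 in stimulated Th2 and 24 in resting Th1. In the other 8 regions the ratio ranged from 0.132 to 0.301. All 10 thus kept some Th17 reads.

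**Figure D5:**
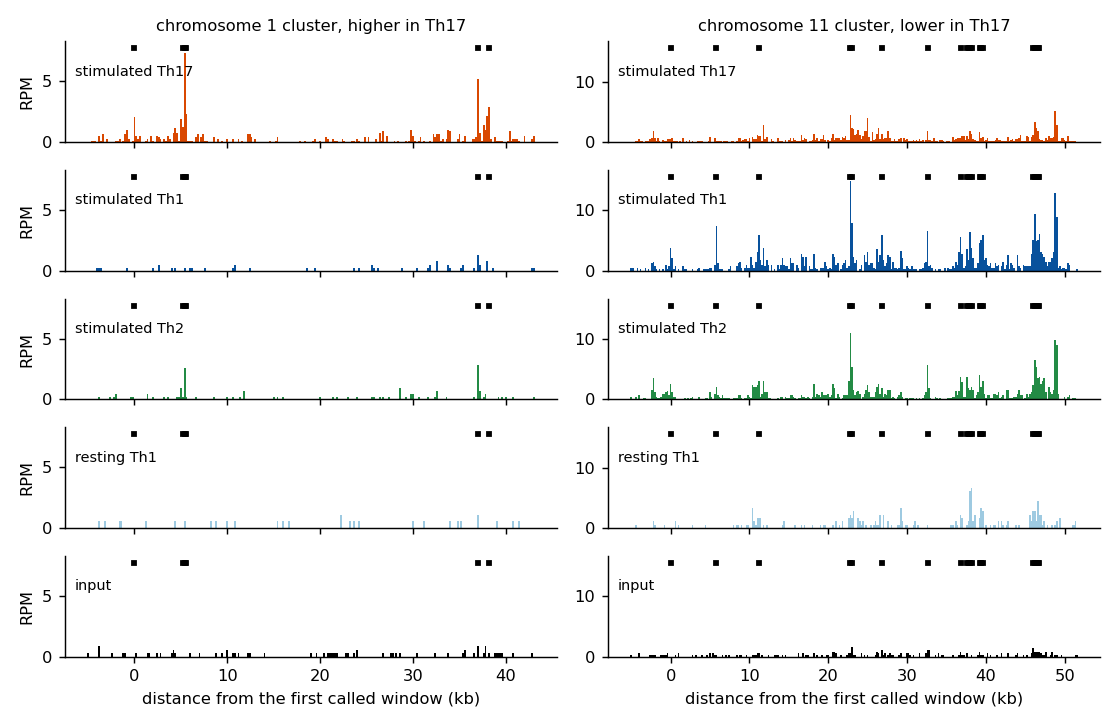
RPM in 200 bp windows across the chromosome 1 cluster (left) and the chromosome 11 cluster (right), as distance from the first called window, for stimulated Th17, Th1 and Th2, resting Th1 and input, with black marks for called windows. On the left the tallest called Th17 window reaches 7.35 RPM where stimulated Th1 has 0.255, and on the right the tallest called Th1 window reaches 14.8 RPM where stimulated Th17 has 4.43.

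The next lower clusters, chr11:100685401-100830800 and chr13:45933001-46070400, each held 8 lower regions, of 16 and 19 tested. Their called regions had 54 and 74 reads in stimulated Th17 and 117 and 162 in stimulated Th1. The Th17 level was 4.37-fold (3.14 to 6.14) and 4.41-fold (3.33 to 5.89) lower in them, and stimulated Th2 had 106 and 197 reads. Over the whole spans the ratios were 0.889 (0.831 to 0.950) and 0.703 (0.660 to 0.749). In RPM the cluster on chromosome 13 was higher in stimulated Th2, at 46.2, than in stimulated Th1, at 41.4.

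The 2 libraries also differed outside regions, over long stretches of the genome. In bins of 1 Mb on the autosomes, the ratio of Th17 to Th1 RPM outside regions had a median of 1.00 and ran from 0.532 at the 5th percentile to 1.37 at the 95th. With the bins divided into 5 classes by the RPM of stimulated Th2 over input, the median ratio was 0.627, 0.799, 1.10, 1.14 and 1.11 from the lowest to the highest class. The number of tested regions per bin rose from 0.0989 to 27.0 over the same classes. With each region scaled by the ratio of its 1 Mb bin, a choice made after the data were seen, 531 of 22337 regions (2.38%) were higher and 4675 (20.9%) lower. Without this scaling the shares were 3.43% and 16.6%.

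Chromosome X stood below the autosomes in both libraries and more so in stimulated Th17. Its Th17 to Th1 ratio was 0.822 (0.815 to 0.828) in all reads and 0.839 outside regions, against 0.938 to 1.06 in all reads of the autosomes. Relative to input, its RPM was 0.522 in stimulated Th17, 0.636 in stimulated Th1 and 0.690 in stimulated Th2, while naive cells had 1.05. Of its 284 tested regions, 3 were higher (1.06%) and 51 lower (18.0%), against 3.43% and 16.6% of all tested regions. The median ratio of its regions was 0.567, against 0.579 over all tested regions. Without chromosome X, 768 regions were higher and 3673 lower.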

How the data were processed

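The authors deposited lists of aligned reads, 1 line per read with chromosome, start, end and strand, and no other measured value (positions in bp). Reads are 34 bases long on mm9, per the submitters' processing notes. Per the labels' protocols, crosslinked chromatin was cut with MNase and sonicated, and libraries had 18 PCR cycles and inserts selected at 250 to 300 bases. The aligner is not given in the sources used here.

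From these reads, chromosome Y was left out, 1 read per chromosome, 5′ end and strand was kept, and 5′ ends were shifted by 75 bp. Counts in 200 bp windows were set against a background (the highest of the mean over the genome and the input, scaled, within 1, 5 and 10 kb), and called windows were joined over 1 window. The union of regions was counted with all distinct reads. A ratio needs at least 10 reads in the pair. Named were the 12 highest and 12 lowest regions by the interval bound nearest 1, the 5 shared regions, and the 3 clusters of each direction with the most regions. The rule asked for the 3 longest clusters, read here as the most regions with ties broken by span. Of the named higher regions, 1 is not reported singly here. Members and lists were chosen with earlier results of these data known. Calling and counting were tested on simulated data. Alternatives changed read filtering, shift, depth, scaling, region source, fold and minimum count. Python 3.11.15, NumPy 2.4.6, SciPy 1.17.1, pandas 2.3.3 and matplotlib 3.10.9 were used.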

Additional observations from a re-analysis of the deposited data

How the results depend on the processing

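Higher against lower counts of regions (771 and 3724 as reported) came to 2696 and 6049 with all reads kept, 2814 and 5817 with regions called in the pair alone, 124 and 1507 with separate reads for calling and counting, 2088 and 1253 with the median ratio set to 1, and, chosen after seeing the data, 1521 and 1006 at equal depth with the median ratio set to 1. The number tested also moved, from 22462 to 37121 with all reads kept, 38136 with the pair alone and 9404 with separate reads. In these 3 settings 16.3%, 15.3% and 16.0% of those tested were lower, against 16.6% as reported. The shares called higher were 7.26%, 7.38% and 1.32%, against 3.43%. Regions from the other 4 libraries gave 146 higher, a 2-fold limit gave 7576 lower and a minimum of 20 reads gave 2435 lower (13.9% of 17555 tested). The remaining counts stayed within 1.5 times those reported, and at equal depth 454 of the 771 higher and 2853 of the 3724 lower regions were called again. Regions called in stimulated Th17 and Th1 numbered 2271 and 6345 at a Poisson tail of 1e-07, 43263 and 29153 with all distinct reads, so that their order turned, and 15205 and 19629 with all reads kept. Gaps of up to 20 kb left 9 higher and 85 lower clusters. Of the 24 named called regions, chr5:73161201-73161400 was no longer called higher at equal depth, and chr3:32308001-32308200 had a ratio of 0.353 when widened. No paired analysis was possible because each group has 1 library, and for the same reason no replicate could be left out. At the minimum of 10 reads only large ratios can be called, and a count of 0 allows up to 3.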

Other observations

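Regions that were called in all 5 BRG1 libraries other than stimulated Th17 numbered 779 among those tested. Of these, 375 (48.1%) were also called in stimulated Th17 at equal depth, 60 (7.70%) were lower in Th17 than in Th1 and 0 were higher, with a median ratio of 0.490. Stimulated Th17 had at most 3 reads in 1 of the 779, which is chr11:51269001-51269400, where the read starts of the 2 strands lay close together. Regions called in all 5 BRG1 libraries other than stimulated Th1 numbered 392, of which 375 (95.7%) were also called in stimulated Th1. Of all tested regions, 26.5% were called in stimulated Th17 and 49.9% in stimulated Th1 at equal depth, 16.6% were lower and 3.43% higher.

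The 1 Mb bin with the highest Th17 to Th1 ratio outside regions was chr8:117000001-118000000, at 2.24, where all reads came to 932 RPM in stimulated Th17 and 441 in stimulated Th1, while naive cells had 543, resting Th1 476, resting Th2 598, stimulated Th2 648 and input 520. The bin at chr13:44000001-45000000 had a ratio of 1.98, with 1348 RPM in stimulated Th17, 740 in stimulated Th1 and 1127 in stimulated Th2. The lowest was chr15:17000001-18000000, at 0.419, with no tested region and 43.8 RPM in stimulated Th17, 105 in stimulated Th1, 318 in naive and 189 in input. These bins were picked for their extreme values.

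Distances between the median plus-strand and minus-strand read starts were set out for regions of 1 window with at least 3 reads on each strand. The distance had a median of 104 bp in stimulated Th17 at 704 higher regions and 94 bp in stimulated Th1 at 2740 lower regions. It was 93 bp in both libraries at regions called in neither direction. A distance under 40 bp was found at 10.9% of the higher regions in Th17, at 16.2% of the lower regions in Th1 and, at regions called in neither direction, at 18.5% in Th17 and 18.7% in Th1.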
